A study of Mus musculus with 24 samples.

Results

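The genes described here are 10 myeloid C-type lectin receptor genes, chosen by name as the activating and inhibitory receptors of this kind in macrophages, monocytes and dendritic cells. They are Clec4d, Clec4e, Clec4n, Clec5a, Clec7a, Clec4a2, Clec12a, Clec4a1, Clec4a3 and Ly75, 10 of the 45792 genes listed in each library. Their RNA was measured in liver cells of female C57BL/6 mice that for 2 weeks ate a diet lacking methionine and choline, a feeding regimen that gives fatty, inflamed liver. All mice also received liposomes marked with the dye DiI into a vein, so neither an undieted nor an uninjected mouse is among the groups. The liposomes were either empty or carried curcumin, a polyphenol of turmeric. After 24 hours, liver cells with CD11c and MHC class II on their surface were sorted by DiI. Each of the 4 groups holds 3 libraries: DiI-negative and DiI-positive cells after empty liposomes, and DiI-negative and DiI-positive cells after curcumin liposomes. Separate mice, pooled mice or repeat preparations could lie behind the libraries of a group, which the labels do not tell, so every p-value reflects how these libraries scatter, and part of that scatter may be technical. Age and any pooling of the mice were not stated in these sources.

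C-type lectin receptors bind sugars, lipids and other patterns on microbes and on damaged cells. Dectin-2 (Clec4n), Mincle (Clec4e) and MCL (Clec4d) have short tails and signal through the Fc receptor gamma chain, whose activation motif (ITAM) recruits the kinase Syk. Dectin-1 (Clec7a) carries a shortened motif of its own (a hemITAM), and CLEC5A pairs with the adaptors DAP12 and DAP10. Syk passes the signal to CARD9 and on to NF-kappa-B. DCIR1 (Clec4a2) and MICL (Clec12a) carry an inhibitory motif (ITIM) that recruits phosphatases. DEC-205 (Ly75) is an endocytic receptor of the mannose receptor family, known from dendritic cells that take up antigen. Such receptors are of interest in the liver because macrophages and dendritic cells there clear particles from the blood, liposomes included.

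In the GENCODE M21 annotation of GRCm38, 9 of the 10 genes lie on chromosome 6 and Ly75 lies on chromosome 2 (60292103 to 60383303, minus strand). Clec4a1, Clec4a3, Clec4a2, Clec4n, Clec4d and Clec4e form a cluster of 368 kb (chromosome 6, 122921848 to 123289870). Clec4n itself spans 123229843 to 123247021 on the plus strand. Clec12a and Clec7a lie within 130 kb of each other (129342691 to 129472779), and Clec5a lies far from both groups (40574894 to 40585821). The annotation lists Clec7a as a polymorphic pseudogene and the other members as protein coding. All 10 passed the filter on low values, which asked for an average of 4 or more across the 12 libraries on the log2 scale.

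Promoter sequence was available for 9 of the members as windows from 250 bases before to 50 bases after the transcript start (RefSeq, GRCm38.p6), and Clec4n had no entry. The letters AAGAGGAA, the core of the site known for the myeloid transcription factor PU.1, or their reverse complement TTCCTCTT, stood in the windows of 6 of these 9 genes. Over all genes with a window, 4.11% of 27025 held the letters on either strand. The letters were picked after the members' windows had been read, so the 6 of 9 is a description and not a test. The windows of Clec4a2, Clec7a and Ly75 did not hold these exact letters. All 6 genes carry the letters as TTCCTCTT on their own strand, and the matches of 5 of them are printed here. That of Clec4d is left out because the stretch around it runs past the RefSeq transcript start. Each is printed 5′ to 3′ on the gene's strand, with the matched letters in capitals.
Clec5a, chr6:40585833-40585880, minus strand: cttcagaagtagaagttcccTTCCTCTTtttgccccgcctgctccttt
Clec4a1, chr6:122921641-122921688, plus strand: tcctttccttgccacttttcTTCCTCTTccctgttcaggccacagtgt
Clec4a3, chr6:122952574-122952621, plus strand: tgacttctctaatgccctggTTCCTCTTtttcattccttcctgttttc
Clec4e, chr6:123289967-123290014, minus strand: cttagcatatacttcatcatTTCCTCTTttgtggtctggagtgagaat
Clec12a, chr6:129350177-129350224, plus strand: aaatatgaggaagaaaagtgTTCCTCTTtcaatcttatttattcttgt
Counted from the RefSeq start, the first matched base was at -55 in Clec5a, -187 in Clec4a1, -50 in Clec4a3, -123 in Clec4e and -47 in Clec12a. Clec4a1 held a further match at -217, and Clec4d held its match at position 8 after the start. The RefSeq and GENCODE starts are not always the same. In GENCODE M21 Clec4a3 begins at 122952515 and Clec12a at 129342691, so the printed stretches of these genes lie inside the genes as annotated there.

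The deposited values are log2 normalized values whose transform is not stated. Fold changes are on that scale and may understate the change of low genes if it shrinks them, and reads per library are not given in the values. Precision therefore rests on the spread between libraries. Over the tested genes, libraries correlated with r of at least 0.9735. The first principal component, with 34% of the variance, separated DiI-positive from DiI-negative libraries. The second, with 13.8%, placed replicates 1 and 3 of the curcumin DiI-positive group at opposite ends. The genes of the sort were high in every group, with group means of Cd74 from 19.19 to 19.30. H2-Ab1, an MHC class II chain, was slightly lower in DiI-positive cells over both liposomes (log2 fold change -0.22 ± 0.06 SE, limma adjusted p = 0.036). Itgax, which encodes CD11c, gave -0.53 ± 0.17 (limma adjusted p = 0.075).

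The first comparison sets dye-carrying cells against cells of the same sort without dye. Clec4n was the member that rose: it was higher in DiI-positive cells after curcumin liposomes and over both liposomes together. The other 9 members did not pass the threshold in any comparison. Background for reading this count comes from all 14227 tested genes. In the curcumin arm 3.07% of genes passed, and 1.41% passed as higher, against 1 of 10 members. With empty liposomes 2.95% of genes passed, against 0 of 10 members by limma, of which Clec4n alone had an unadjusted p under 0.05. For the average of both liposomes 12.1% of genes passed, 5.54% as higher, so 1 of 10 members is near the background. The median difference of the 10 members was 0.00 with empty liposomes, 0.19 with curcumin liposomes and 0.10 on average. Medians over all tested genes were 0.004, -0.003 and 0.005.

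Clec4n encodes Dectin-2, which binds mannans of fungi and other microbes. After empty liposomes its log2 values were 10.09, 10.35 and 10.24 in the DiI-negative libraries and 10.85, 10.54 and 11.08 in the DiI-positive libraries. With curcumin liposomes they were 10.02, 10.56 and 9.83 against 11.07, 10.90 and 11.36. Within each liposome every DiI-positive library lay above every DiI-negative library. Such separation is common between these gates: 26.9% of tested genes did not overlap with empty liposomes and 20.6% with curcumin liposomes. Across both liposomes the gates overlapped, with 10.54 to 11.36 in the DiI-positive libraries and 9.83 to 10.56 in the DiI-negative libraries. The gates of the other 9 members overlapped under both liposomes.

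Clec4n was 1.96-fold higher in DiI-positive cells after curcumin liposomes (log2 fold change 0.97 ± 0.20 SE, 95% confidence interval 0.53 to 1.40, limma adjusted p = 0.026). With empty liposomes the difference was 0.60 ± 0.20 (0.16 to 1.03) and did not pass after adjustment (limma adjusted p = 0.14). Averaged over both liposomes it rose 1.72-fold, by 0.78 ± 0.14 (0.47 to 1.09, limma adjusted p = 0.0049). The uptake differences under the liposomes differed by 0.37 ± 0.28, with an interval of -0.24 to 0.99, and that difference did not pass (limma adjusted p = 1.0). Thus the call with curcumin and the missed call with empty liposomes are not shown to differ. The average was called under all 19 alternatives run, with adjusted p from 0.0024 to 0.016. The call with curcumin liposomes held in 13 of 20, with adjusted p from 0.017 to 0.13. It was lost without DiI-negative replicate 1 (adjusted p = 0.11) or 3 (0.085), or DiI-positive replicate 1 (0.057) or 2 (0.054), as well as with replicate 3 of both gates left out (0.10). It was also lost with no filter on low genes (0.052) and with a fit of only the compared groups (0.13).

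**Figure D1:**
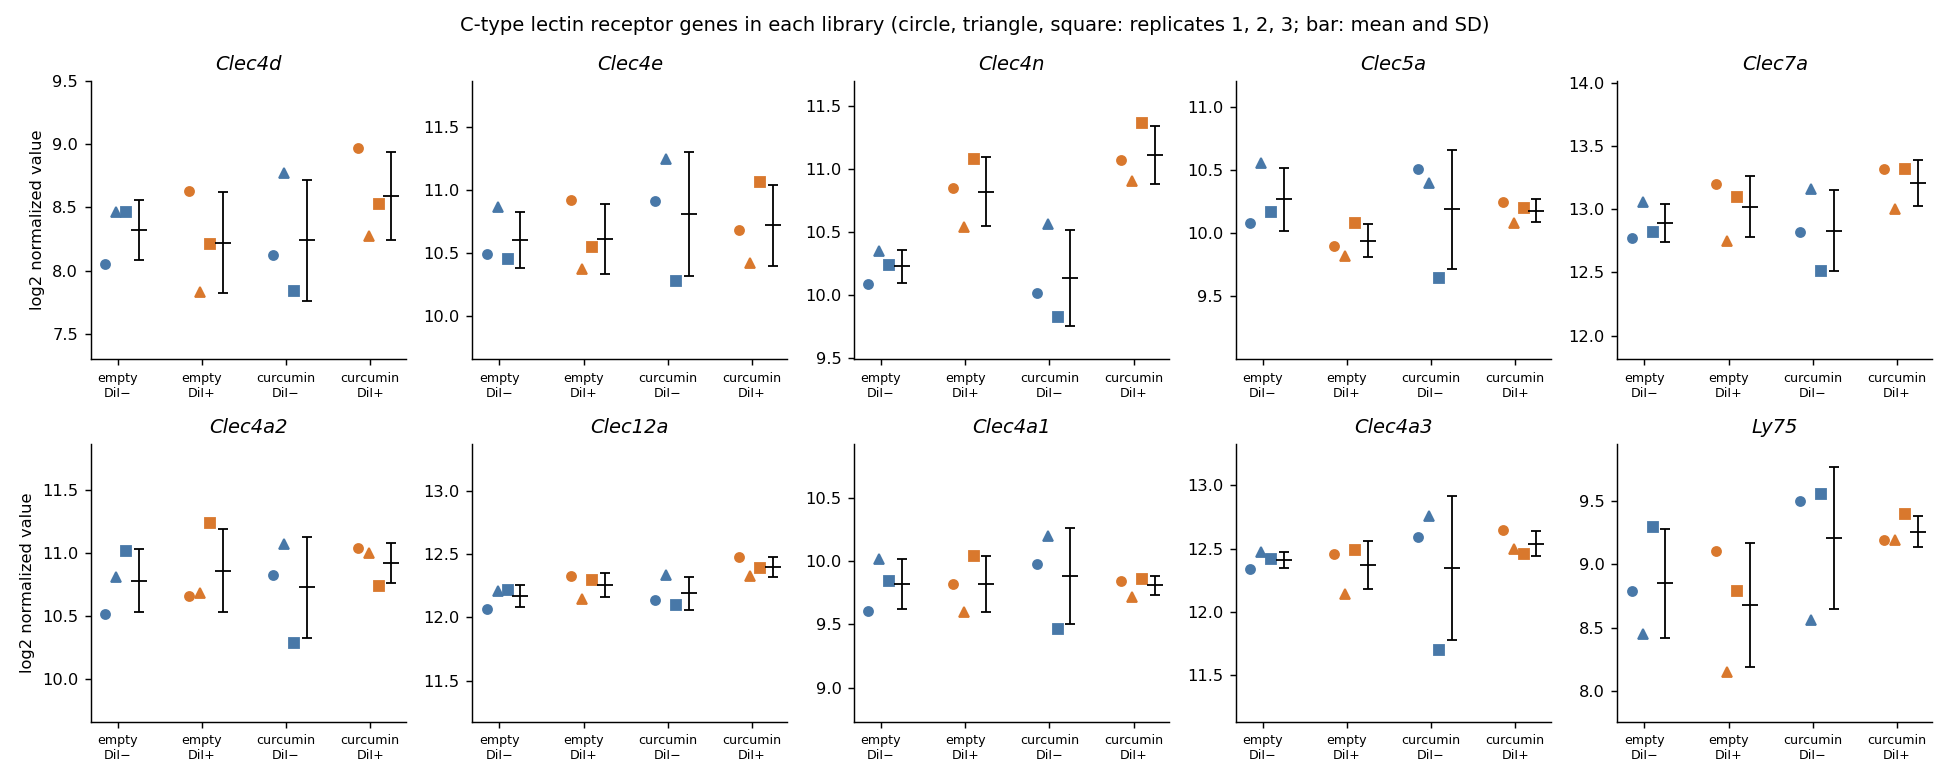
Log2 normalized values of the 10 genes (vertical axis, 2.2 units tall in every panel) in the 4 groups (horizontal axis), DiI-negative in blue and DiI-positive in orange. Symbols are the 3 libraries and the black bar is mean and SD. Clec4n shows separate gates under both liposomes, while the other panels overlap between the gates.

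Clec4n was set against its neighbours in the cluster, the 5 members Clec4a1, Clec4a3, Clec4a2, Clec4d and Clec4e. Its log2 value minus their mean was 0.35 to 0.83 in the DiI-positive libraries and -0.46 to -0.08 in the DiI-negative libraries. In Clec4n alone a single pair of libraries overlapped. Within groups Clec4n varied together with these neighbours (Pearson r of deviations from group means 0.60 to 0.86). Subtracting their mean takes out scatter that they share, so the construction itself favours a clearer gap. Clec4n was already the called member and its neighbours were not called, so this is a description and not a test. How often other genes separate the gates after such a subtraction is not given. Of the cluster's genes outside the list, Clec4a4 gave an average difference of -0.18 ± 0.09 and Clec4b1 one of -0.02 ± 0.09. Neither passed (limma adjusted p = 0.21 and 0.93).

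Markers of other cell types moved with the same sort, and in bulk RNA fewer cells of a type and less RNA per cell cannot be told apart. Of 10 Kupffer cell markers, 7 were higher in DiI-positive cells under each liposome and 8 on average. Over all tested genes 2.95% were called with empty liposomes, 3.07% with curcumin liposomes and 12.1% on average. The summed level of a marker list is the log2 of its summed unlogged values, so markers with high values weigh most. For the Kupffer cell list it was 14.25 to 14.59 in DiI-negative libraries after curcumin and 15.99 to 17.18 in DiI-positive ones. After empty liposomes it was 14.30 to 14.45 against 15.40 to 16.68. Id3, the highest of these markers in DiI-negative cells, averaged 13.55 there after empty and 13.60 after curcumin liposomes. Clec4f, the lectin that defines Kupffer cells, averaged 8.51 and 13.02 in the DiI-negative and DiI-positive cells of the empty arm. All 10 B cell markers were higher on average, with summed levels of 15.88 to 16.40 in DiI-negative and 16.53 to 17.69 in DiI-positive libraries. On average T and NK cell markers were lower for 7 of 10 and monocyte markers for 7 of 9 tested. Basophil and mast cell markers were lower for 7 of 8 and cDC2 markers for 6 of 10. Sinusoidal endothelial markers were higher for 2 of 8, with summed levels of 12.48 to 12.69 without dye and 12.93 to 14.20 with it. Mature migratory dendritic cell markers gave 2 higher and 1 lower of 10, and nonclassical monocyte markers 2 higher and 1 lower of 8. Type 1 dendritic cell markers gave 1 higher and 2 lower of 10, and plasmacytoid ones 1 higher of 8. No neutrophil or hepatocyte marker passed. The summed T and NK level was 13.19 to 13.69 without dye and 11.83 to 12.49 with it. Summed monocyte markers were at 15.97 to 16.66 without dye and 15.67 to 15.85 with it, and cDC2 markers at 15.55 to 15.84 and 15.04 to 15.48. No marker of these lists was listed at 0 in all libraries of a group, but a value above 0 does not by itself show detection. Fcer1a, a basophil and mast cell marker, stood at 5.63 with an SD of only 0.004 in the empty DiI-positive libraries, and the transform is not stated. The part of these cell types in the Clec4n result was not tested.

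None of the other 4 activating receptors passed the threshold, and whether their differences were smaller than that of Clec4n was not tested. Clec7a encodes Dectin-1, the receptor for beta-glucans. Its values were 12.77, 13.06 and 12.82 in DiI-negative and 13.20, 12.75 and 13.10 in DiI-positive cells after empty liposomes. With curcumin they were 12.82, 13.16 and 12.51 against 13.32, 13.003 and 13.32. The gates overlapped under both liposomes. Clec7a gave 0.13 ± 0.17 with empty liposomes and 0.38 ± 0.17 with curcumin liposomes (interval 0.01 to 0.76), and neither passed (limma adjusted p = 0.76 and 0.26). Clec7a and Clec4n were the 2 members with an unadjusted p under 0.05 after curcumin liposomes. The average was 0.26 ± 0.12 (interval -0.01 to 0.52, limma adjusted p = 0.20).

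Clec4d and Clec4e, which encode partners in recognising the mycobacterial cord lipid, showed no called difference. Clec4d stood at 8.05, 8.46 and 8.46 without dye and 8.63, 7.83 and 8.21 with it in the empty arm. In the curcumin arm its values were 8.12, 8.77 and 7.84 against 8.97, 8.27 and 8.53. Overlap was wide in both arms, and the average difference was 0.12 ± 0.20 (interval -0.30 to 0.55, limma adjusted p = 0.74). Clec4e, whose product also senses a protein released by dying cells, stood at 10.49, 10.86 and 10.45 against 10.92, 10.37 and 10.55 after empty liposomes. With curcumin the values were 10.91, 11.24 and 10.28 against 10.68, 10.42 and 11.06. Its average difference was -0.04 ± 0.17 (interval -0.42 to 0.34, limma adjusted p = 0.92). These intervals do not exclude shifts of up to 0.55 for Clec4d or 0.42 for Clec4e on the log2 scale in magnitude.

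Clec5a, a receptor known from dengue virus infection and myeloid inflammation, leaned the other way after empty liposomes. Its DiI-negative libraries stood at 10.08, 10.56 and 10.17 and its DiI-positive libraries at 9.90, 9.82 and 10.08. The highest DiI-positive and the lowest DiI-negative library met at 10.08, and the difference of -0.34 ± 0.21 did not pass (limma adjusted p = 0.44). With curcumin liposomes the values were 10.51, 10.40 and 9.65 without dye and 10.25, 10.08 and 10.20 with it. That difference was -0.01 ± 0.21, and the average was -0.17 ± 0.15 (interval -0.49 to 0.15, limma adjusted p = 0.50).

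Among the receptors with an inhibitory motif, Clec12a had the narrowest spread of the 10 genes, a range of 0.41 over the 12 libraries. It encodes a receptor for uric acid crystals. The empty arm gave 12.07, 12.21 and 12.22 without dye and 12.33, 12.15 and 12.30 with it. The curcumin arm gave 12.14, 12.34 and 12.10 against 12.48, 12.33 and 12.39. In both arms the gates overlapped. The average difference was 0.15 ± 0.07 (interval 0.00 to 0.30) and did not pass after adjustment (limma adjusted p = 0.19). Clec12a and Clec4n were the 2 members with an unadjusted p under 0.05 on average.

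Clec4a2 encodes the inhibitory receptor DCIR1. Its values after empty liposomes were 10.52, 10.81 and 11.02 without dye and 10.66, 10.68 and 11.24 with it. Curcumin liposomes gave 10.83, 11.07 and 10.29 against 11.04, 11.00 and 10.74. The gates overlapped throughout, with an average difference of 0.13 ± 0.15 (interval -0.20 to 0.47, limma adjusted p = 0.63). This gene shares sequence with 2 neighbours, and how the reads were assigned between them is not given in the sources used here. Of its distinct 50-base transcript windows, 6.83% also occur in transcripts of other genes, mainly Clec4a4 and Clec4b1. Its coding sequence is 85.8% identical to that of Clec4a4 and 87.1% to that of Clec4b1. A stretch of 163 bases is the same in Clec4a2 and Clec4a4, and it is shown because reads from it cannot be placed in either gene. In Clec4a2 (GRCm38, plus strand) it covers chr6:123123662-123123669, chr6:123124970-123125086 and chr6:123127952-123127989, which are coding exon parts.
Clec4a2 and Clec4a4, shared run: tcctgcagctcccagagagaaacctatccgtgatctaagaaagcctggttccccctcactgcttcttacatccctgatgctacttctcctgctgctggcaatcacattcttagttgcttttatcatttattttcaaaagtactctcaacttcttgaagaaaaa
The level of Clec4a2 is therefore uncertain. Clec4a4 was far lower in the same libraries, with group means from 5.26 to 5.48, and Clec4b1 had means from 10.05 to 10.17.

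Clec4a1 and Clec4a3 are the further members of the DCIR family in this cluster, with coding sequences 73.5% identical to each other. Neither shares a 50-base window with another gene. Of the members described above, Clec4n shares 11 of its 1603 windows (0.686%) with Gm44147, and Clec12a shares 25 of 5476 (0.457%) with other genes. Clec4a1 stood at 9.61, 10.02 and 9.84 without dye and 9.82, 9.60 and 10.04 with it after empty liposomes. Curcumin liposomes gave 9.98, 10.20 and 9.46 against 9.84, 9.72 and 9.86. The gates overlapped in both arms, and the average difference was -0.04 ± 0.13 (interval -0.33 to 0.26, limma adjusted p = 0.90). Clec4a3 values were 12.34, 12.47 and 12.42 against 12.46, 12.14 and 12.49 in the empty arm. In the curcumin arm they were 12.59, 12.76 and 11.70 against 12.65, 12.50 and 12.46. DiI-negative replicate 3 lay 0.44 below the next lowest of the 12 libraries for this gene. With it the average difference was 0.07 ± 0.16 (limma adjusted p = 0.82), and without it the difference was -0.09, also not called (0.55).

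Ly75, the endocytic receptor, was the most variable member after Clec4n, with a range of 1.41 over the 12 libraries against 1.52. After empty liposomes it stood at 8.79, 8.45 and 9.30 without dye and at 9.11, 8.15 and 8.79 with it. The curcumin arm gave 9.50, 8.56 and 9.56 against 9.19, 9.19 and 9.40. The gates overlapped in both arms, and the average difference was -0.05 ± 0.22 (interval -0.54 to 0.43, limma adjusted p = 0.91). A gene on the opposite strand of the locus, Gm13571, shares 151 of the 50-base windows of Ly75 (2.19%). Whether the counting used strand is not given in the sources used here, so reads of the pair cannot be told apart there.

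**Figure D2:**
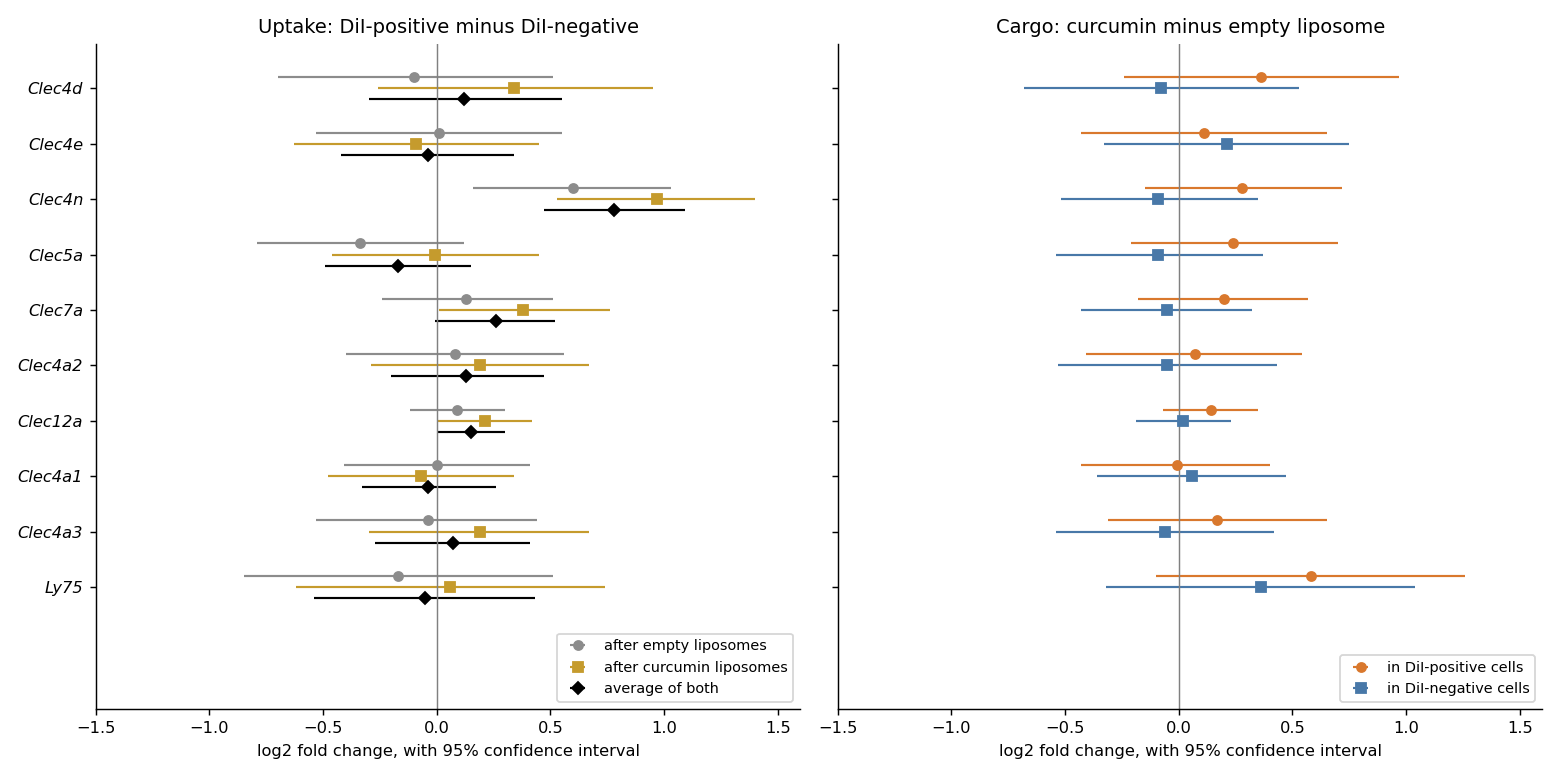
Log2 fold changes (horizontal axis) of the 10 genes (vertical axis) with 95% confidence intervals, for DiI-positive against DiI-negative cells on the left and for curcumin against empty liposomes on the right. On the left Clec4n has the highest values, at 0.60, 0.97 and 0.78. Its interval with empty liposomes (0.16 to 1.03) overlaps that of Clec7a (-0.24 to 0.51), and differences between members were not tested. On the right every interval includes 0.

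The second comparison asks whether the cargo, curcumin, changed the cells of each gate. No member passed in either gate by limma, and 0 of 10 had an unadjusted p under 0.05 in both gates. No gene of the 14227 tested passed (0%), while 1165 genes in DiI-positive cells and 469 in DiI-negative cells had an unadjusted p under 0.05. In DiI-positive cells 9 of 10 members had a positive difference, with a median of 0.18 and a range of -0.01 to 0.58, against a median of 0 over all genes. Adjusted p-values of the members ran from 0.67 to 0.99. The members vary together between libraries, so the 9 signs are not independent of each other. Libraries did not overlap for 2 of 10 members, against 10.02% of all tested genes.

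Those 2 members were Ly75 and Clec12a. Ly75 in DiI-positive cells stood at 9.11, 8.15 and 8.79 after empty and 9.19, 9.19 and 9.40 after curcumin liposomes, a difference of 0.58 ± 0.31 (interval -0.10 to 1.26, limma adjusted p = 0.67). The highest empty library and the lowest curcumin library were 0.08 apart. Clec12a gave 0.14 ± 0.10 (interval -0.07 to 0.35, limma adjusted p = 0.73). Clec4n gave 0.28 ± 0.20 (limma adjusted p = 0.74), Clec4d 0.36 ± 0.28, Clec5a 0.24 ± 0.21 and Clec7a 0.20 ± 0.17. In DiI-negative cells the median of the 10 members was -0.05, from -0.09 for Clec4n and Clec5a to 0.36 for Ly75. All 10 members overlapped between the liposomes there, against 11.2% of tested genes without overlap, and every adjusted p was 1.0. The curcumin effects of the gates differed by a median of 0.23 (range -0.10 to 0.44), and 0 of 10 members passed or had an unadjusted p under 0.05. Intervals this wide leave the size of any curcumin effect on these genes poorly bounded.

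Levels of the genes can be compared only per length. Log2 values minus the log2 of exon length in kb put Clec4a3 first at 12.01 ± 0.27 (SD over 12 libraries) and Clec7a second at 11.59 ± 0.25. Clec4n followed at 10.07 ± 0.48, Clec12a at 9.79 ± 0.13, Clec4a2 at 9.28 ± 0.27 and Clec4a1 at 9.19 ± 0.21. The lower end held Clec4e at 8.37 ± 0.31, Clec5a at 8.20 ± 0.27, Clec4d at 7.67 ± 0.36 and Ly75 at 6.21 ± 0.45. Not every step in this order was larger than its spread. Clec4n exceeded Clec12a in 8 of 12 libraries (difference 0.28, SD 0.38), Clec4a2 exceeded Clec4a1 in 5 of 12 (0.08, SD 0.18) and Clec4e exceeded Clec5a in 9 of 12 (0.17, SD 0.24). The other 6 steps had the same direction in 12 of 12 libraries. Exon length was the union of all annotated exons of a gene, whichever transcripts the cells made. That length is the same in every library, so agreement between libraries does not check it, and the order is approximate. The largest of them was from Clec7a to Clec4n, at 1.52 with an SD of 0.30. In DiI-positive cells the mean per kb of Clec4n was 10.32 beside 9.79 for Clec12a after empty liposomes, and 10.60 beside 9.93 after curcumin liposomes. In DiI-negative cells the means lay close together, at 9.72 for Clec4n and 9.70 for Clec12a after empty liposomes and at 9.63 and 9.72 after curcumin liposomes.

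**Figure D3:**
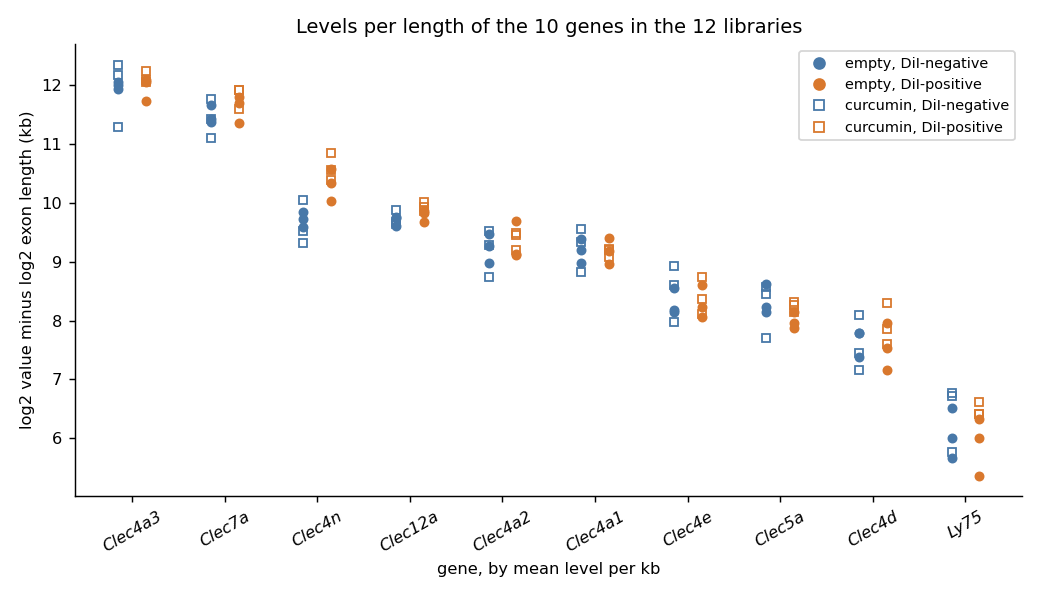
Log2 value minus log2 exon length in kb (vertical axis) for the 10 genes, ordered by mean (horizontal axis), in 12 libraries. Blue is DiI-negative and orange DiI-positive, filled circles are empty and open squares curcumin liposomes. Clec4a3 and Clec7a are highest, Ly75 is lowest, and for Clec4n a single library pair overlaps between the gates.

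Beyond the group means, the members varied together from library to library. Each value was taken as its deviation from its group mean, and Pearson r was computed over the 12 libraries as a description. All 36 pairs among the 9 members other than Ly75 were positive, from 0.32 (Clec4e with Clec4a2) to 0.97 (Clec4d with Clec12a), with a median of 0.74. Ly75 differed from this: its 9 pairs ran from -0.32 to -0.10. Libraries of the same group thus ranked alike for most members. Curcumin DiI-negative replicate 3 was lowest in its group for 9 of 10 members, with a median deviation of -0.41, and replicate 2 was highest for 8. Empty DiI-positive replicate 2 was lowest for 9, empty DiI-negative replicate 1 for 8 and curcumin DiI-positive replicate 2 for 7. Without curcumin DiI-negative replicate 3 the 36 pairs ran from -0.19 to 0.96 with a median of 0.64, and 35 stayed positive. The pairs of Ly75 then ran from -0.07 to 0.15. Curcumin DiI-negative replicate 3 also differed from replicates 1 and 2 in summed cell type markers. Monocyte markers stood at 15.97 beside 16.66 and 16.63, and neutrophil markers at 12.62 beside 13.95 and 13.76. Markers of dendritic cell type 1 (cDC1) were higher, at 16.06 beside 15.17 and 14.83. The cDC2 markers were close, at 15.69 beside 15.72 and 15.76. The points also share library preparation and scaling. The part of cell make-up, preparation and scaling in the correlations was not tested.

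**Figure D4:**
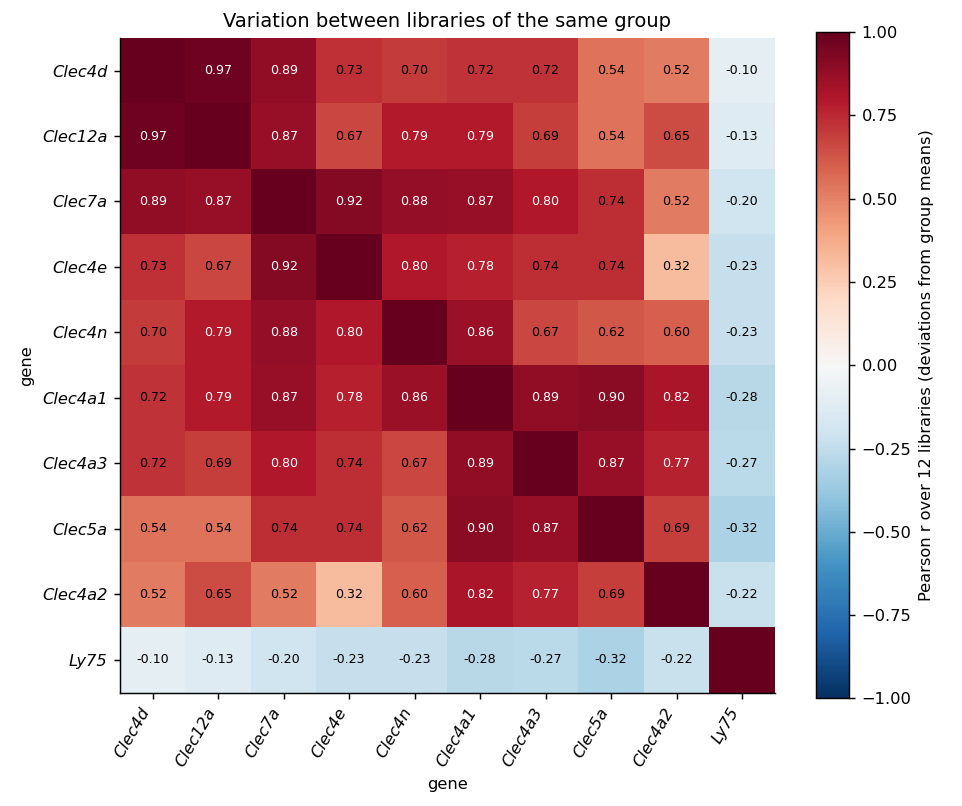
Pearson r of deviations from group means over 12 libraries for each pair of the 10 genes, red positive and blue negative. The block of 9 genes is positive throughout, from 0.32 to 0.97, and the row of Ly75 is weakly negative.

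Over all 12 libraries, group differences included, the genes with the pattern most like each member were named as the 3 highest Pearson r among the tested genes. For Clec4n these were Lpl, lipoprotein lipase (r = 0.99), Adap2 (0.98) and Ctsd, the lysosomal protease cathepsin D (0.97). Lpl itself rose in DiI-positive cells by 1.02 ± 0.16 on average (limma adjusted p = 0.0027). Because Lpl was picked for its likeness to Clec4n over these same libraries, its rise is not separate evidence. Clec7a was most like Cd68, a lysosomal membrane protein of macrophages (0.97), Sirt2 (0.95) and Pla2g7 (0.91). Clec12a was most like Cstb (0.93), Cd68 (0.91) and Fth1, ferritin heavy chain (0.91), so Cd68 appears for both genes. Clec4a2 was most like B2m, H2-D1 and Ctss (0.91 each), genes of antigen presentation, and Clec4a3 like Gstm1 (0.94), Abi3 and Ms4a4a (0.93 each). The closest genes to the remaining Clec members were Ctdsp1 for Clec4d (0.91), Eno1b for Clec4e (0.88), Ccl6 for Clec5a (0.88) and Gm17324 for Clec4a1 (0.87). Ly75 was most like Gm13571 (0.92), the opposite-strand gene with which it shares sequence. These are the highest of 14227 correlations over 12 libraries and are given without a p-value.

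The signalling genes downstream of these receptors were described from a list of 16 adaptors, kinases and members of the CARD9 arm, all tested. With either liposome alone 0 of 16 passed by limma. On average 2 of 16 were higher and 1 was lower in DiI-positive cells, beside 12.1% of all tested genes, and the list's median was -0.08. Syk, the kinase shared by the activating receptors, rose by 0.27 ± 0.07 (limma adjusted p = 0.029). Its mean was 14.00 without dye and 14.22 with it after empty liposomes, and 13.95 and 14.27 after curcumin liposomes. Btk, a kinase that acts after Syk, rose by 0.23 ± 0.07 (limma adjusted p = 0.049). Vav3, a guanine nucleotide exchange factor, fell by 0.55 (SE 0.13, limma adjusted p = 0.019). The Fc receptor gamma chain Fcer1g, the partner of Dectin-2, gave -0.26 ± 0.11 and did not pass (limma adjusted p = 0.17). Tyrobp, which encodes DAP12, gave -0.31 ± 0.10 (limma adjusted p = 0.074), and Card9 gave -0.25 ± 0.15 (limma adjusted p = 0.33). Syk and Btk are also B cell genes, and the B cell markers moved with them as given above. The part of those cells was not tested.

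Of 5 phosphatases of the inhibitory arm, 0 passed with either liposome alone and 1 was lower on average, beside 12.1% of all tested genes called. That was Ptpn11, which encodes SHP-2, at -0.38 ± 0.11 (limma adjusted p = 0.037). Ptpn6, which encodes SHP-1, gave 0.04 ± 0.06 (limma adjusted p = 0.71).

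Of 33 other C-type lectin genes listed, 26 were tested. With empty liposomes 3 were higher and 2 lower, beside 2.95% of all tested genes called. With curcumin liposomes 2 were higher and 2 lower, beside 3.07%, and on average 6 were higher and 5 lower, beside 12.1%. Whether these shares differed from that of the 10 members was not tested. Clec4f rose by 4.52 ± 0.40 and Clec1b, a receptor that Kupffer cells and platelets carry, by 2.30 ± 0.21 (limma adjusted p = 0.00015 each). Cd209a, a lectin of dendritic cells, fell by 2.03 (SE 0.20, limma adjusted p = 0.00028) and Clec10a fell by 1.31 (SE 0.17, limma adjusted p = 0.00091). Beside these, Clec4n rose by 0.78, and the other 9 members lay between -0.17 and 0.26. Clec4f is itself in the Kupffer cell marker list, and Cd209a and Clec10a are in the cDC2 list, so they are not independent of the shifts in those lists.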

How the data were processed

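Low-input RNA sequencing (SMARTer cDNA, Nextera XT, per the labels' protocols) gave 12 libraries, each with 2 sample records, 24 records in all. The letters of the library codes (EL or CL for the liposome, P or N for DiI) were interpreted with the help of the series design. The authors deposited 1 log2 value per gene and library, from -3.62 to 19.4. GRCm38, DESeq2 1.8.1 and STAR 2.4.0d are named in the submitters' processing notes. The counter, the annotation and the transform were not given in the sources used here, and depth is not in the values. Of 45792 genes, 20918 were at 0 in all libraries and 14227 averaged 4 or more on the log2 scale. These were fitted with limma 3.58.1 (R 4.3.3): 4 group means, all 12 libraries, a prior variance that follows the mean, and Benjamini-Hochberg adjusted p under 0.05 over all genes tested. The fit was tested on simulated data. Symbols came from GENCODE M21 (98.8% of identifiers). Coding identity came from global alignment of the longest annotated coding sequences. The members, gene lists and comparisons were chosen with earlier results of these data known. Named genes were the members, up to 4 called genes per list with the smallest p, the 3 most correlated genes per member, and the sort genes; Clec4a4, Clec4b1, Fcer1g, Tyrobp, Card9, Ptpn6, Gm13571 as overlapping gene and the effect of Lpl were added with values seen. Alternatives were the filter, scaling, variance model, replicate block, library weights and leaving out libraries.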

Additional observations from a re-analysis of the deposited data

How the results depend on the processing

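Of 1180 values of the members under alternatives, 1101 kept direction and side of the threshold, 7 lost the call and 72 changed sign, 0 of them called. The 7 were all Clec4n after curcumin liposomes, where the number of members called went from 1 to 0. This happened with no filter on low values (0 members) and with a fit of only the groups compared (0), and leaving out libraries gave 0 to 1. Fewer libraries or more genes were tested in these fits, and the cause was not tested further. The alternative without replicate 3 of both curcumin gates was chosen after seeing the data. Over all genes, the curcumin uptake call count of 437 became 248 with no filter and 40 with only the groups compared. The empty uptake count of 419 became 263 with no filter and 789 with library weights. Leaving out libraries gave 114 to 1088 genes with curcumin, 85 to 666 with empty liposomes and 1149 to 2244 on average. The counts of 0 for curcumin in DiI-positive cells and for the difference between gates reached 4 and 2 genes.

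Sign changes came only from leaving out libraries, and all were of uncalled log2 differences. For uptake after empty liposomes the ranges were -0.30 to 0.10 (Clec4d), -0.14 to 0.14 (Clec4e), -0.11 to 0.19 (Clec4a2), -0.11 to 0.07 (Clec4a3) and -0.38 to 0.10 (Ly75). Clec4a1, at 0.00 there, ran from -0.11 to 0.11 and was not counted as a sign change. After curcumin liposomes they were -0.53 to 0.13 (Clec4e), -0.29 to 0.16 (Clec5a), -0.03 to 0.36 (Clec4a2), -0.31 to 0.09 (Clec4a1), -0.14 to 0.39 (Clec4a3) and -0.26 to 0.23 (Ly75). On average they were -0.26 to 0.07 (Clec4e), -0.15 to 0.04 (Clec4a1), -0.09 to 0.17 (Clec4a3) and -0.22 to 0.08 (Ly75). For curcumin in DiI-positive cells they were -0.06 to 0.26 (Clec4e), -0.04 to 0.25 (Clec4a2) and -0.12 to 0.10 (Clec4a1). In DiI-negative cells they were -0.34 to 0.12 (Clec4d), -0.01 to 0.47 (Clec4e), -0.30 to 0.06 (Clec4n), -0.25 to 0.18 (Clec5a), -0.22 to 0.11 (Clec7a), -0.22 to 0.17 (Clec4a2), -0.05 to 0.07 (Clec12a), -0.11 to 0.27 (Clec4a1) and -0.27 to 0.27 (Clec4a3). For the difference between gates they were -0.54 to 0.12 (Clec4e), -0.10 to 0.31 (Clec4a2), -0.30 to 0.09 (Clec4a1), -0.10 to 0.44 (Clec4a3) and -0.10 to 0.44 (Ly75).

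Over all 18 pairs of libraries with the same replicate number, r of the deviations ran from -0.114 to 0.328, with 2 over 0.1. In 16 of 36 comparisons a library correlated best with its own number. Between the gates of the same liposome, same-number pairs were all positive. They gave 0.079, 0.004 and 0.076 after empty liposomes and 0.066, 0.035 and 0.328 after curcumin liposomes. The main fit did not treat the numbers as a pairing, and a pairing within each liposome alone was not fitted. With the replicate block Clec4n gave 0.60 after empty liposomes (limma adjusted p = 0.18), 0.97 after curcumin liposomes (0.045) and 0.78 on average (0.011), and the counts of members called were 0, 1 and 1. The block changed no other call of a member.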
